A study of Bos taurus with 32 samples.

Results

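The genes described here are 122 of the 27607 Ensembl gene IDs in the count table, those read at a modest level in the hypothalamus of calves and hardly at all in 3 other tissues. They were chosen on tissue means of CPM (a gene's count divided by the total of its library, times 1000000). A gene was taken if its mean over the 8 hypothalami was at least 5 and under 30 CPM, and if that mean plus 0.5 was at least 8 times the mean plus 0.5 of each other tissue (pituitary, testicle, adrenal). The same ratio with a hypothalamic mean of 30 CPM or more holds for 226 genes, and with a mean under 5 CPM for 2. Levels by tissue are therefore given as a description with no test, since they chose the genes.

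Poly(A)-selected RNA came from 8 male Holstein calves, each giving 1 library of every tissue, 32 libraries in all. Embryos of 4 calves (numbers 3208, 3209, 5833 and 5841) were produced in vitro (IVP). Those of the 4 control calves (3213, 3217, 3218 and 5932) were produced in vivo, by superstimulation of the ovaries and artificial insemination (MOET). Embryos of both origins were carried by recipient cows, and the calves were kept under similar conditions until sampling at 98 to 104 days of age, except MOET calf 3213, which was 144 days old. Replicates are separate animals. Library totals ran from 20178727 to 22170502 counts in the hypothalamus and from 17357283 to 23380330 over all tissues. In the hypothalamus 3 counts stand for 0.135 to 0.149 CPM.

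The hypothalamus is a small region at the base of the forebrain made of many nuclei, each a cluster of neurons with its own peptides, receptors and transcription factors. Its neurons set the release of pituitary hormones, and so the activity of the testis and the adrenal, and they also steer feeding, growth, body temperature and sleep. Transcripts used by a single nucleus are diluted by the rest of the tissue in a whole-tissue library and can appear at a low level. A bulk library does not tell fewer cells of a kind from less RNA per cell. No table used here gives symbols for these IDs (0 matched the reference table). What the genes encode is therefore not given, 4 of them are named by ID, and the tissue labels were not checked against marker genes.

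In the hypothalamus the 122 genes were read throughout, each at a small share of the library. Their mean levels ran from 5.43 to 29.96 CPM with a median of 14.2 CPM, and 121 of the 122 had reads in all 8 hypothalami. The remaining gene had 0 counts in MOET 3217. Summed over the 122, the level was 1937 CPM in IVP 3208, 1888 in 3209, 1891 in 5833 and 2089 in 5841. In the MOET calves it was 1777 CPM in 3213, 1814 in 3217, 1723 in 3218 and 2019 in 5932. On these library totals the sum was thus highest in IVP 5841 and lowest in MOET 3218, and the origins overlapped. As a share of all counts this is 0.172% in MOET 3218 (95% exact binomial interval 0.170% to 0.174%) and 0.209% in IVP 5841 (0.207% to 0.211%), where the intervals cover counting error only. The order of the origins depended on the scaling. Their mean sums were 1951 CPM in IVP and 1833 CPM in MOET calves on library totals. With TMM factors, which set libraries to a common level over most genes, the means were 1848 and 1937 CPM. The TMM-scaled sums ran from 1693 to 1934 CPM in IVP and from 1854 to 2002 CPM in MOET calves. The 10 most abundant of the genes held 14.9% of the summed level. The rule kept every mean under 30 CPM, so no few genes could have dominated the sum.

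Outside the hypothalamus the same genes left traces. Their summed level was 42.8 to 82.0 CPM in the 8 pituitaries (median 50.6), 31.4 to 76.1 CPM in the testicles (median 57.3) and 38.3 to 61.0 CPM in the adrenals (median 44.0). No library of another tissue came near the lowest hypothalamus. The median gene had a pituitary mean of 0.252 CPM, a testicular mean of 0.235 CPM and an adrenal mean of 0.185 CPM. A mean of 1 CPM was reached by 16 genes for the pituitary, 13 for the testicle and 13 for the adrenal. No count in any of the 8 libraries was found for 6 genes in the pituitary and 12 in the adrenal, while every gene had at least 1 count in some testicle.

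**Figure D1:**
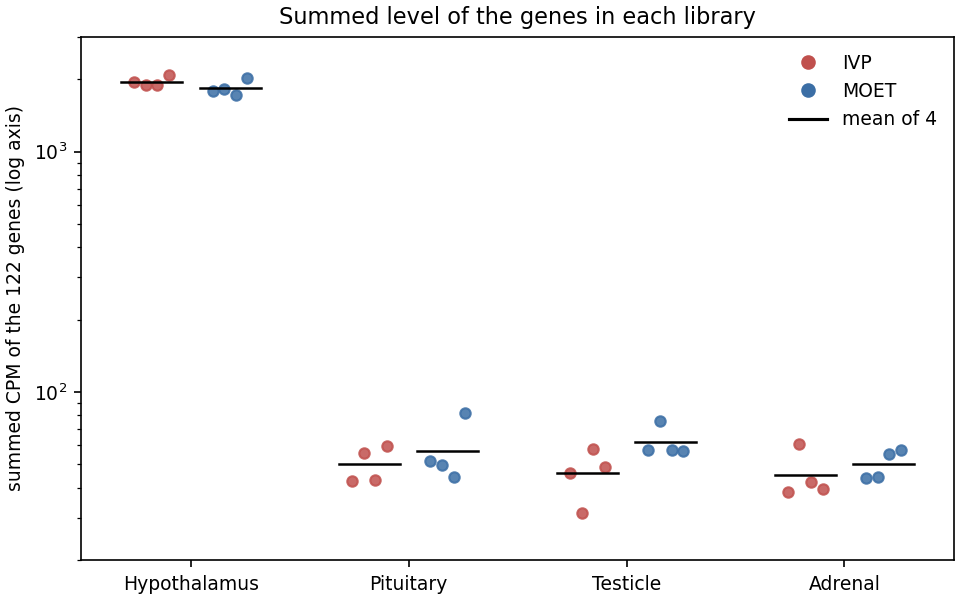
Summed level (CPM, log axis) of the 122 genes in each of 32 libraries, by tissue and embryo origin; points are calves and lines are means of 4. Hypothalami lie between 1723 and 2089 CPM, and libraries of the other tissues between 31.4 and 82.0 CPM.

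The tissue with the next highest mean was the testicle for 54 genes, the pituitary for 38 and the adrenal for 30. Genes with the testicle next had a median ratio (of means plus 0.5) of 13.3, against 10.9 for the pituitary and 12.4 for the adrenal. Over the 122 genes the ratio ran from 8.13 to 51.0 with a median of 12.5, and 17 genes reached 20. The gene with the largest ratio had 53.5, 13.4, 39.2 and 33.6 CPM in the hypothalami of IVP 3208, 3209, 5833 and 5841, and 16.01, 32.2, 4.81 and 18.8 CPM in those of MOET 3213, 3217, 3218 and 5932. It had reads in 4 of the 24 libraries of other tissues. Its hypothalamic level differed 11.1-fold between the highest calf, IVP 3208, and the lowest, MOET 3218 (CV, the SD over the 8 hypothalami as a percentage of the mean, 60.4%). The genes with the next 3 ratios (38.4, 31.2 and 29.7) varied less, with CVs of 25.1%, 15.4% and 12.9%.

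The rule bears on low genes more tightly than on higher ones because of the 0.5 added to each mean. At 5 CPM it allows at most 0.188 CPM elsewhere, at 10 CPM 0.813 CPM, and at 30 CPM 3.31 CPM. Of the genes with a hypothalamic mean from 5 to under 10 CPM 29 were taken (1.53% of 1894), from 10 to under 20 CPM 60 (2.49% of 2412) and from 20 to under 30 CPM 33 (2.01% of 1644). Near the ratio limit, the last genes inside stood at 8.13 and 8.14 and the first outside at 7.88 and 7.86. Near the upper level limit, 29.0 and 29.96 CPM were inside and 31.9 and 32.3 CPM outside. At the lower limit, 5.43 and 5.64 CPM were inside and 4.64 and 4.50 CPM outside.

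**Figure D2:**
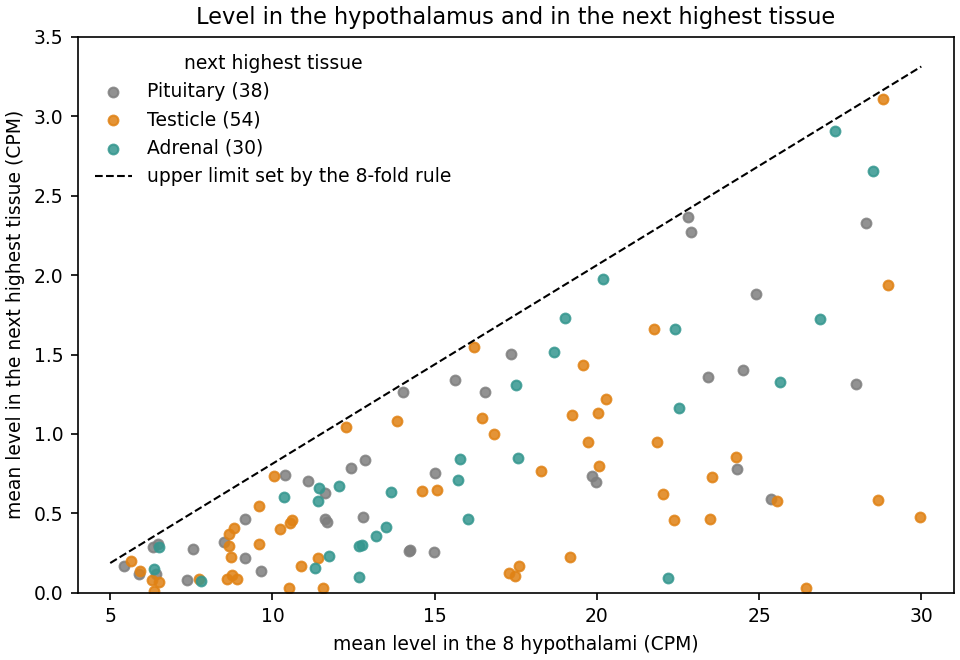
Each of the 122 genes by its mean level in the 8 hypothalami and in the next highest tissue (both CPM), coloured by that tissue; the dashed line is the most that the 8-fold rule allows. Points spread from the line down to near 0, and 54 have the testicle as the next tissue.

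Some of the traces came from 1 library. In the pituitary 9 genes, and in the adrenal 6, had at least 50% of the summed level of the tissue in a single library, at 0.5 CPM or more there, and in the testicle none did. Of the 9 in the pituitary, 5 had that library in MOET 5932, which also had the highest pituitary sum (82.0 CPM). Of the 6 in the adrenal, 3 had it in IVP 3209 and 2 in IVP 5833. The clearest case had 45 counts (2.35 CPM) in the adrenal of IVP 5833 and 0 counts in the other 7 adrenals. Another had 51 counts (2.33 CPM) in the pituitary of IVP 3209, against at most 1 count in any other pituitary, and 16 counts in the adrenal of the same calf. A further gene had 83 counts (3.55 CPM) in the pituitary of MOET 3218, against at most 9 elsewhere in that tissue. All of these are far below the level of the same genes in the hypothalamus of the same calf, which was 11.9, 24.7 and 21.3 CPM.

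The genes differed widely in how much they varied between calves. The CV over the 8 hypothalami had a median of 30.1%, with quartiles at 22.3% and 44.2%, and ran from 10.3% to 142%. Counting error at these levels is a median CV of 5.74%. The median ratio of the highest to the lowest hypothalamus was 2.39, with 34 genes under 2-fold and 26 genes at 5-fold or more or with a library at 0. In the 226 more abundant hypothalamus-enriched genes the median CV was 21.8%, and in the 5828 genes of the same hypothalamic level that failed the ratio it was 20.5%. A CV of 50% or more was found for 28 of the 122 genes (23.0%), 16 of the 226 (7.08%) and 532 of the 5828 (9.13%). Within the origins the median CV of the 122 genes was 29.2% in IVP and 24.0% in MOET calves, against 17.8% and 15.5% in the genes of the same level, so the wide range was there inside each origin. These are descriptions of 8 libraries and the differences between the lists were not tested.

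The extremes show how different the genes are. The steadiest gene had a CV of 10.3%, with 24.3, 24.7, 22.05 and 18.0 CPM in IVP 3208, 3209, 5833 and 5841 and 24.9, 25.5, 24.3 and 24.2 CPM in MOET 3213, 3217, 3218 and 5932. Its single low value was IVP 5841. A gene with the next to highest mean level (29.0 CPM), by contrast, had 6.11, 22.3, 16.6 and 23.3 CPM in the same IVP calves and 34.7, 6.44, 43.1 and 79.3 CPM in the same MOET calves. It was high in MOET 5932 and low in both IVP 3208 and MOET 3217. The gene closest to the ratio limit had 55.1, 11.9, 37.1 and 62.9 CPM in IVP and 14.3, 12.8, 9.71 and 26.7 CPM in MOET hypothalami, which makes IVP 3208, 5833 and 5841 the high calves.

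The calves at the extremes were not the same from gene to gene. The highest level of a gene was in IVP 5841 for 27 genes, in IVP 3208 for 26, in MOET 3218 for 22, in MOET 5932 for 19, in IVP 3209 for 15, in MOET 3217 for 11 and in IVP 5833 for 2. MOET 3218 was the lowest calf for 39 genes and IVP 3208 for 24. These extremes, and the sets described next, are on column totals and were not counted over all genes. MOET 3218 had the smallest TMM factor of the hypothalami (0.860) and IVP 5833 the largest (1.12). All genes thus stand lower in MOET 3218, and higher in IVP 5833, than they would with TMM scaling. The oldest calf, MOET 3213, was neither the highest nor the lowest for any of the 122 genes.

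Grouping the genes by their course over the 8 hypothalami (average linkage on the correlation of log2(CPM + 0.5), divided into 4 sets after the data were seen) gave sets of 47, 31, 29 and 15 genes. The sets were formed from these values, so their courses are a description. Set A (47 genes) was above its genes' own means in IVP 3208 by 0.61 on the log2 scale, in IVP 5841 by 0.47 and in IVP 5833 by 0.43, and it stood at -0.89 in MOET 3218, where 1 of the 47 genes was above its mean. IVP 3209 did not share that course, with a mean deviation of -0.13. Set B (31 genes) ran the other way, at 0.48 in MOET 3218, 0.33 in MOET 3217 and 0.26 in MOET 3213, and at -0.48 in IVP 5841, where 0 of the 31 genes were above their means. MOET 5932 stood at -0.12 in set B, apart from the other 3 MOET calves. Set C (29 genes) joined calves of both origins: it was highest in MOET 5932 (0.57, with 29 of 29 genes above their means) and IVP 5841 (0.34) and lowest in IVP 3208 (-0.61, with 0 of 29 above). Set D (15 genes) was highest in IVP 3209 (0.36) and lowest in IVP 3208 (-0.37). The median CV was 37.6% in set A, 25.8% in set B, 30.9% in set C and 23.5% in set D. The testicle was the next tissue for 25 of the 47 genes of set A and 16 of the 31 of set B. In set C the next tissue was the pituitary for 12 genes, the adrenal for 10 and the testicle for 7.

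**Figure D3:**
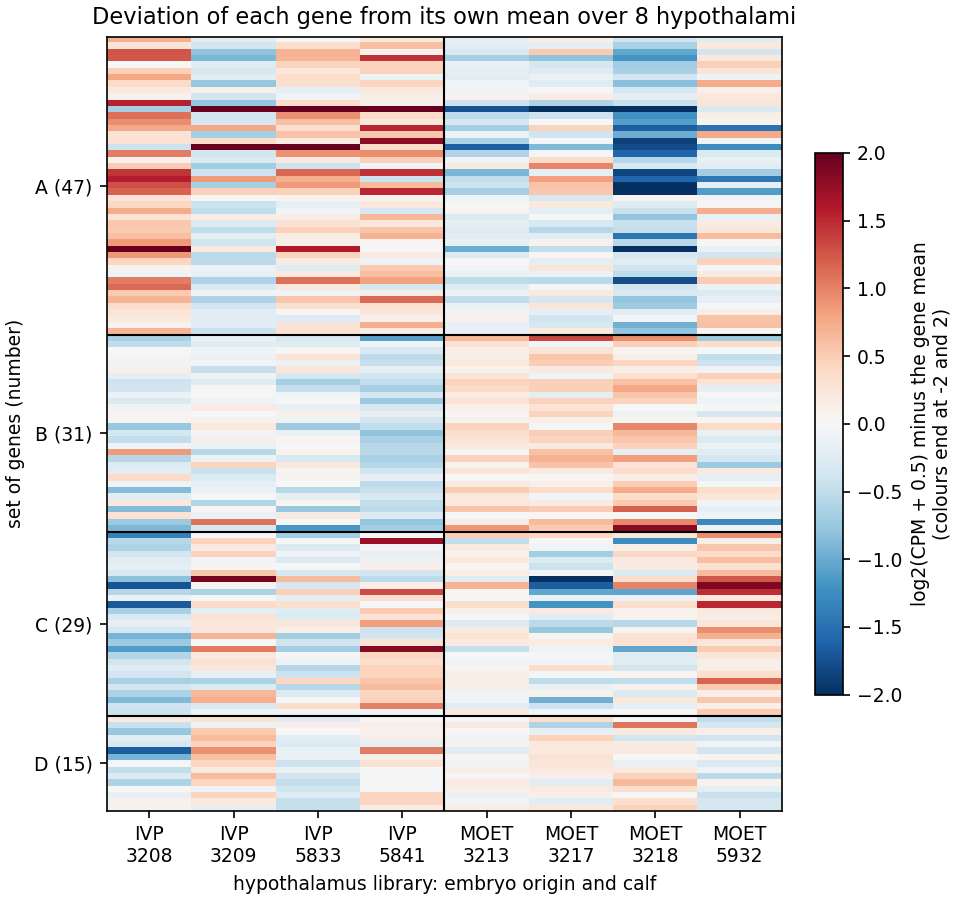
Deviation of each of the 122 genes from its own mean over the 8 hypothalami (log2 of CPM + 0.5, colour), with calves as columns by embryo origin and genes as rows in 4 sets formed after the data were seen. Set A is high in IVP 3208, 5833 and 5841 and low in MOET 3218, and set C is high in MOET 5932 and low in IVP 3208.

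The study's question is whether calves differ by embryo origin. The rule averaged over both origins and did not compare them, but a gene low in either origin could enter through the other. ENSBTAG00000014556 and ENSBTAG00000012710 had MOET means of 2.68 and 1.11 CPM, under the 5 CPM minimum. They entered through the IVP calves, as did further genes, among them a gene whose MOET mean was 2.26 CPM. Genes low in IVP calves entered through the MOET calves. The IVP mean of such a gene was 2.53 CPM, against a MOET mean of 9.25 CPM. For another the IVP mean was 3.70 CPM, against a MOET mean of 9.30 CPM. The choice is thus not wholly free of this contrast, and its effect on the fold changes was not tested. In the hypothalamus 0 of the 122 genes passed (edgeR quasi-likelihood test on 4 IVP against 4 MOET calves, Benjamini-Hochberg adjustment over all genes tested, threshold 0.05). Over all 16066 genes tested 9 passed, which is 0.056%. The smallest adjusted p among the 122 was 0.103. All 122 had passed the filter on low counts. At an unadjusted p under 0.05 there were 39 of the 122, against 24.0% of all genes tested. Of these, 12 were higher in IVP, against 12.1% of all genes, and 27 were lower, against 11.9%. DESeq2 called 21 of the 122, where it called 8.1% of all genes. They were 5 higher and 16 lower in IVP, against 3.63% and 4.47% of all genes. Without IVP 3209 edgeR called 3 of the 122, where it called 0.271% of all genes.

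In size, the log2 fold changes (IVP over MOET) of the 122 genes had a median of -0.14 and quartiles of -0.47 and 0.25, with a median SE of 0.25. All genes tested had a median of 0.03, with a smaller median SE of 0.18. There were 51 genes with a positive value, where 53.0% of all genes had one, and 71 with a negative value, and 19 exceeded 1 in size, against 5.65% of all genes. The 19 include the genes given above with a mean under 5 CPM in IVP or in MOET calves. The 226 more abundant hypothalamus-enriched genes had a median of -0.25, with 66 positive and 160 negative, and the 5826 tested genes of the same level that failed the ratio had 0.10. These signs depend on the scaling. TMM factors, which set libraries to a common level over most genes, ranged over 0.9997 to 1.12 for IVP hypothalami and 0.860 to 1.02 for MOET hypothalami, and using plain column totals moves all genes by a median of 0.16. The 122 genes then had a median of 0.03 with 62 positive and 60 negative values, but all genes had moved upward with them. The share of all genes with a positive value was not counted on column totals. CPM values printed here are on column totals, fold changes are on TMM.

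**Figure D4:**
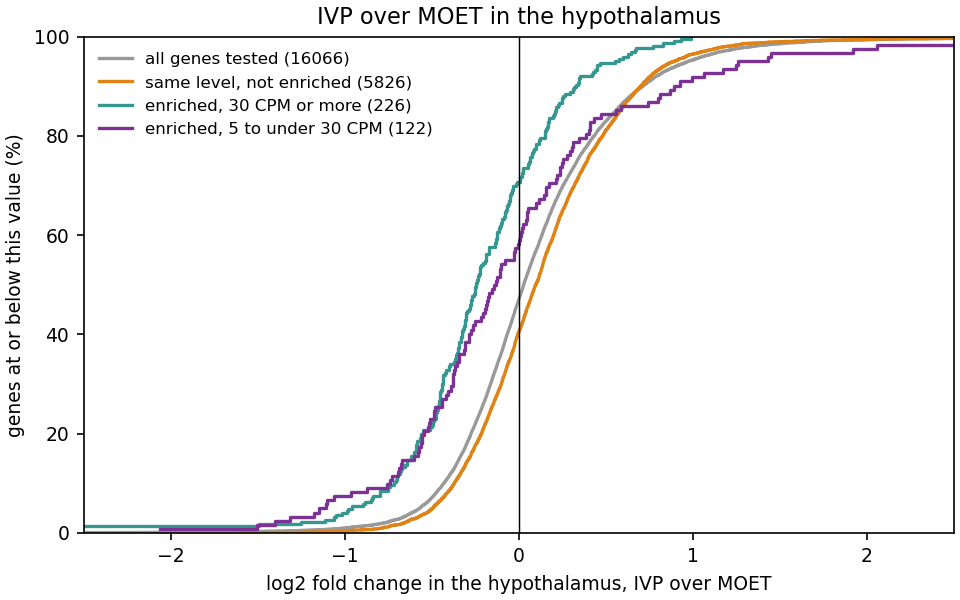
Share of genes (%) at or below each log2 fold change of IVP over MOET in the hypothalamus, for the 122 genes, the 226 enriched genes of 30 CPM or more, 5826 genes of the same level that failed the ratio, and all 16066 genes tested. Of the 122 genes 71 lie below 0, and their median of -0.14 is left of the median of all genes, 0.03.

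With TMM scaling, all 4 IVP hypothalami lay above all 4 MOET hypothalami for 2 of the 122 genes (1.64%), against 4.93% of all genes tested. They lay below them for 11 (9.02%), against 5.06%. On column totals the counts were 4 (3.28%) and 8 (6.56%), against 9.37% and 2.4% of all genes. On both scales the share was thus smaller than over all genes for IVP above MOET, and larger for IVP below MOET. These differences were not tested.

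The lowest p among genes higher in IVP belonged to ENSBTAG00000014556. It had 5.48 CPM in IVP 3208, 65.2 in 3209, 49.6 in 5833 and 9.77 in 5841, and 2.12 CPM in MOET 3213, 3.86 in 3217, 1.83 in 3218 and 2.89 in 5932. The groups did not overlap, but the IVP calves ranged from values close to the MOET calves to values far above. The means were 32.5 ± 29.5 and 2.68 ± 0.908 CPM (SD, n = 4), the log2 fold change was 3.46 (SE 0.78), and the gene did not pass (edgeR adjusted p = 0.138). It was next to absent elsewhere, at 0 to 5 counts in each library of the other tissues.

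Next came ENSBTAG00000012710, at 2.26 CPM in IVP 3208, 44.3 in 3209, 21.96 in 5833 and 19.4 in 5841, and at 0.812 CPM in MOET 3213, 0 in 3217, 0.545 in 3218 and 3.08 in 5932. Here the groups overlapped, as IVP 3208 lay below MOET 5932. The log2 fold change was 4.20 (SE 1.05, edgeR adjusted p = 0.145). These genes have the largest CVs of the 122 (142% and 138%), and both were highest in IVP 3209 and lowest among the IVP calves in 3208.

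Among genes lower in IVP, ENSBTAG00000010938 had the smallest p. Its levels were 8.82, 10.02, 7.41 and 8.35 CPM in IVP 3208, 3209, 5833 and 5841, and 16.8, 16.9, 18.3 and 14.7 CPM in MOET 3213, 3217, 3218 and 5932. Each IVP calf lay below each MOET calf, with a narrow range in both groups. The means were 8.65 ± 1.09 and 16.7 ± 1.51 CPM (SD, n = 4). The log2 fold change was -1.11 (SE 0.17), and the gene still missed the threshold over all genes (edgeR adjusted p = 0.103).

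A similar course was seen for ENSBTAG00000047996, with 8.42, 14.4, 10.5 and 11.4 CPM in the IVP and 22.4, 20.4, 26.7 and 20.5 CPM in the MOET calves in the same order. The groups did not overlap, and the log2 fold change was -1.18 (SE 0.21, edgeR adjusted p = 0.123). Without IVP 3209, both of these genes passed (edgeR adjusted p = 0.0474 each, where their alternatives ran from 1.90e-06 and 5.83e-05 in DESeq2 to 0.384). Its traces outside the hypothalamus were 11 to 29 counts in each testicle, 14 counts in the pituitary of IVP 5841 against 0 to 5 in the other 7, and 10, 10 and 14 counts in the adrenals of IVP 5833, 5841 and 3209 against 0 to 1 in the other 5.

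**Figure D5:**
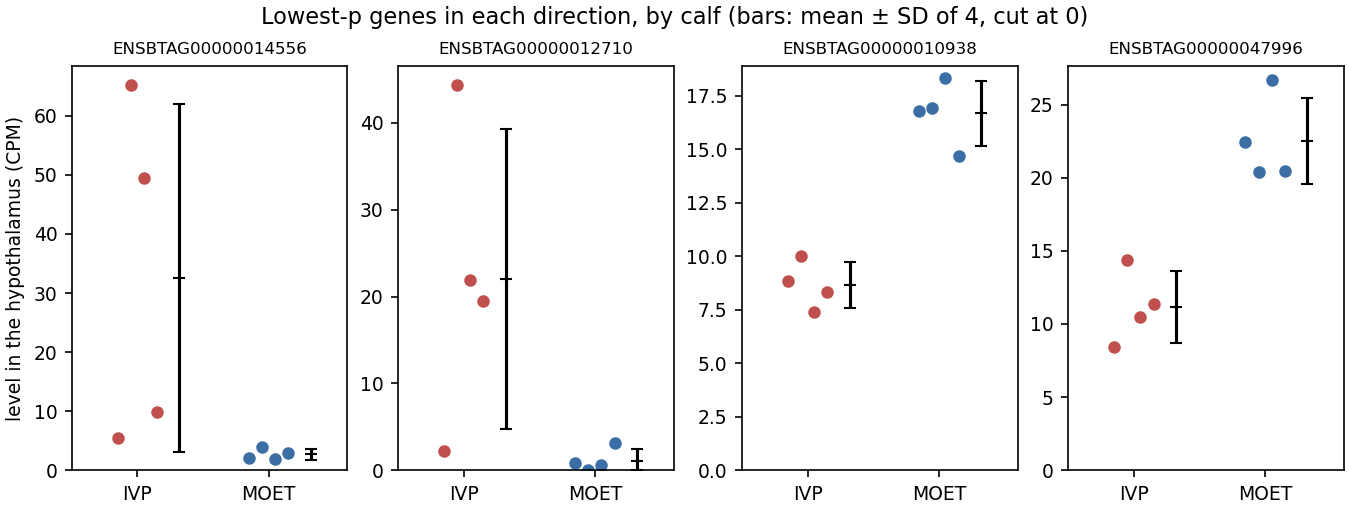
Level (CPM) in each of 8 hypothalami of the 2 genes with the smallest p higher in IVP (left) and the 2 lower in IVP (right); points are calves, and bars are the mean ± SD of 4, cut at 0. The vertical scales differ and start at 0; the first 2 genes span 5.48 to 65.2 and 2.26 to 44.3 CPM within IVP, and the last 2 are lower in every IVP than in every MOET calf.

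The level of pituitary-enriched genes differed between the hypothalami. The 98 genes enriched in the pituitary by the same ratio, at a pituitary mean of 5 CPM or more, held 0.447% of counts in hypothalamus IVP 5833 and 0.0393% to 0.174% in the other 7. IVP 3209 and MOET 5932 were next with 0.170% and 0.174%. Its part in the values of the 122 genes was not tested.

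In the other tissues few of the 122 genes could be tested: 36 pituitary, 44 testicular and 30 adrenal values passed the filter on low counts, and 55 genes passed it in the hypothalamus only. A gene at this level can pass the filter through 1 origin alone, so the tested genes are not a neutral sample of the 122. In the pituitary 2 of 36 passed, where 15.3% of all genes tested passed (edgeR). Both were lower in IVP, as were 7.78% of all genes. The first had a mean of 1.39 ± 0.752 CPM for MOET and 0.509 ± 0.124 CPM for IVP calves (SD, n = 4), with 0.599 to 2.41 against 0.397 to 0.684 CPM, so the groups overlapped (log2 fold change -1.45, SE 0.34, edgeR adjusted p = 0.0244). The other had 2.87 ± 0.392 CPM for MOET and 1.68 ± 0.403 CPM for IVP without overlap (-0.84, SE 0.23, edgeR adjusted p = 0.0400). This count depended on single calves, as did the share of all genes called. It was 0 without IVP 3208 (4.91% of all genes), without IVP 5833 (8.77%), without MOET 3213 (2.37%) and with age as a covariate (1.68%), and 5 of 39 without IVP 3209 (8.24%).

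In the adrenal 6 of 30 passed, where 39.3% of all genes tested passed. There were 3 higher and 3 lower in IVP, against 20.8% and 18.5% of all genes. The lowest p was that of a gene at 2.31 ± 0.698 CPM in MOET and 0.717 ± 0.206 CPM in IVP adrenals (SD, n = 4), with 1.40 to 3.06 against 0.518 to 1.01 CPM and no overlap (log2 fold change -1.48, SE 0.30, edgeR adjusted p = 0.0116). Among those higher in IVP, the first had 0.436 ± 0.133 CPM for MOET and 0.987 ± 0.411 CPM for IVP without overlap (1.35, SE 0.38, edgeR adjusted p = 0.0247). It passed the filter through the IVP calves: the 0.534 CPM that the filter asks of 4 libraries was reached in 4 IVP adrenals and 1 MOET adrenal. The 3 genes lower in IVP reached it in 4 MOET adrenals each and in 3, 2 and 1 IVP adrenals. The count was 12 of 34 without IVP 3208, where 52.5% of all genes were called. It was 3 without MOET 3213 (20.7% of all genes) and with age as a covariate (18.8%). It was 1 without MOET 3218 (15.6%), without IVP 5833 (16.1%) and without MOET 5932 (19.9%), so the share of all genes moved as well.

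In the testicle 0 of 44 passed (edgeR, 0.00612% of all genes tested passed), and DESeq2 called 2, where it called 1.8% of all genes. At an unadjusted p under 0.05 there were 13, against 9.04% of all genes, and 12 of them were lower in IVP, against 5.86%. Of the 44 tested genes 36 had a negative log2 fold change (median -0.39), where 56.6% of all genes tested had a positive one. The more abundant hypothalamus-enriched genes shared this lean, with 151 of 182 tested negative (median -0.46). Over all 122 genes, with no filter, the TMM-scaled mean was lower in IVP testicles for 93 and higher for 29, where it was lower for 47.2% of all genes with a count. Their TMM-scaled sum was 47.2 ± 7.39 CPM in IVP and 59.5 ± 7.44 CPM in MOET testicles (SD, n = 4), with 38.3 to 56.3 against 53.3 to 69.9 CPM, so the groups overlapped. In the pituitary the IVP mean was lower for 70 (50.2% of all genes with a count) and higher for 46, and 6 had no counts. In the adrenal it was higher for 63 (52.8% of all genes with a count) and lower for 47, and 12 had no counts. On column totals the adrenal gave 55 each way, where the mean was higher for 38.3% of all genes. All genes of a library share its TMM factor, so these counts are not independent evidence of a direction.

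Of the 122 genes 12 could be tested in all 4 tissues, and 0 of these had the same sign of log2 fold change in all 4. The share over all genes was not counted, so nothing particular to the 122 genes can be read from this.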

How the data were processed

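RNA was measured in 32 libraries of 4 tissues from 8 calves. Per the labels' protocols, RNA with an integrity number above the stated minimum was poly(A)-selected, made into libraries that do not keep strand, sequenced as paired ends on DNBSEQ, and SOAPnuke removed poor reads. STAR 2.7, HTSeq and bosTau9 are named in the submitters' processing notes. Annotation release and the handling of near-identical genes: not given in the sources used here. Raw counts per gene are what the authors deposited (0 rows lack a gene). Without strand, reads from a gene and its antisense partner cannot be told apart.

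Groups (tissue and embryo origin) follow the labels. Tissue by tissue, genes kept by filterByExpr (minimum count 10, minimum total count 15) were scaled by TMM, and edgeR's robust quasi-likelihood test compared IVP with MOET calves, adjusted with Benjamini-Hochberg over all genes tested. SEs are the log2 fold change over the root of F. The test was checked on simulated counts. The 122 genes, the comparisons and the lists were chosen with earlier results of these data known. Planned lists of genes by function and of marker genes need symbols and were not run. The naming rule without symbols allowed at most 2 IDs in each direction, and those with the smallest p in the hypothalamus were taken. Genes described without an ID are the extremes in level, ratio or CV, those at a limit of the rule and those with the smallest p in another tissue. Also without an ID are genes with a mean under 5 CPM in 1 origin and genes with a trace in 1 library. Both of these kinds were chosen after their values were seen. No sequences are printed, as no table links these IDs to any. Versions were edgeR 4.0.16, DESeq2 1.42.0 and limma 3.58.1 under R 4.3.3, and scipy 1.17.1 and matplotlib 3.10.9 under Python 3.11.15.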

Additional observations from a re-analysis of the deposited data

Results flagged for a closer look

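In 16 groups of 4 libraries (the summed level of the 122 genes in each tissue and origin, and the 4 named genes in the hypothalamus), the highest or lowest value was set against the rest by Dixon's ratio, which chance exceeds in about 1 of 20 groups. A lone value was found in 2. The summed level was 76.1 CPM in the testicle of MOET 3217, against 57.1 to 57.6 CPM in the other 3 MOET testicles. In the adrenal of IVP 3209 it was 61.0 CPM, against 38.3 to 42.1 CPM in the other 3 IVP adrenals.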

How the results depend on the processing

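The number of the 122 genes called moved most with the test. In the hypothalamus, where edgeR called 0, DESeq2 called 21 (8.1% of all genes called) and limma voom with quality weights 61 (53.8%). Voom without such weights, added after the data were seen, called 0 (0.056% of all genes). Leaving out 1 calf gave 0 to 3, where 0.00614% to 0.271% of all genes were called. In the pituitary (2 called) the count was 15 and 4 in voom with and without weights (48.0% and 14.3% of all genes). It was 0 with age (1.68%) and 0 on column totals (2.16%) (added after the data were seen). Without 1 calf it was 0 to 5, where 2.37% to 17.7% of all genes were called. In the testicle (0 called) DESeq2 gave 2 (1.8% of all genes) and voom with weights 23 (34.2%). In the adrenal (6 called) voom with weights gave 27 (85.2% of all genes) and age 3 (18.8%). Leaving out 1 calf there gave 1 to 12, where 15.6% to 52.5% of all genes were called. The causes were not tested. The median log2 fold change of the tested genes turned from -0.14 to 0.03 on column totals in the hypothalamus. All genes moved upward there by a median of 0.16. In the pituitary the median of the tested genes turned from -0.15 to 0.04 without MOET 5932. In the adrenal it turned from -0.41 to 0.18 with no low-count filter, where more genes enter. The 4 named genes kept their direction under all 15 alternatives. The rule itself gives 76 genes with 1 in place of 0.5 added, 272 at 4-fold and 31 at 16-fold, 126 on TMM-scaled totals (118 of them among the 122), and 115 to 127 without 1 calf. No paired analysis was possible because IVP and MOET calves share no animal numbers, so no calf links the groups compared. Outside the hypothalamus the median gene had 0.185 to 0.252 CPM, where 3 counts stand for 0.128 to 0.173 CPM, and the smallest detectable difference was not measured.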
